A study of Mus musculus with 48 samples.

Results

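The genes described here are named after the factors that start and carry out protein synthesis on the cytosolic ribosome. They were measured in Ba/F3 cells with defects in ribosomal proteins. They were chosen by symbol alone: a name that begins with Eif and a digit from 1 to 6, or with Eef1 or Eef2. Of 55487 genes in the table, 84 matched, and 5 of these named as pseudogenes were left out, which leaves 79 genes. Not all encode such factors. The names take in 4 eIF2 alpha kinases, 4 eIF4E inhibitors, 5 eEF1A methyltransferases, and the kinase and methyltransferase of eEF2. They also take in Eif4a3, an exon junction complex helicase, and Eef1e1, a subunit of the multi-synthetase complex. All 79 are called factor genes or members below. Ba/F3 is a mouse haematopoietic line that grows on interleukin 3. The panel asked how ribosomal protein defects found in cancer change RNA levels and translation, and held 8 genotypes with 3 clones each. They were WT, CRISPR-Cas9 clones that had lost 1 copy of Rpl5 (Rpl5+/-), Rpl11 (Rpl11+/-) or Rpl22 (Rpl22+/-) or both copies of Rpl22 (Rpl22-/-), and clones with the protein changes Rpl10 R98S, Rps15 P131S or Rps15 H137Y. The genotype labels write these changes on both alleles (R98S/R98S, P131S/P131S and H137Y/H137Y). The titles of the P131S RNA libraries, unlike those of the P131S footprint libraries, write P131S without a second allele. Each clone gave a poly(A) RNA-seq library and a library of ribosome footprints from the same lysate, after culture with 10% serum and 1 ng/ml interleukin 3 and 1 min of cycloheximide, which stalls ribosomes, at 0.1 mg/ml. All 24 clones derive from 1 cell line, so p-values measure the spread between clones of that line.

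Initiation begins when eIF2, carrying GTP and the initiator tRNA, joins the small ribosomal subunit together with eIF1, eIF1A, eIF3 and eIF5. The eIF4F complex brings this assembly to the capped mRNA, scanning finds the start codon, eIF5B joins the large subunit, and eIF2B recharges eIF2 with GTP. Kinases that phosphorylate eIF2 alpha turn eIF2 into an inhibitor of eIF2B. In elongation, eEF1A delivers aminoacyl-tRNA and is recharged by the eEF1B exchange factor, eEF2 moves the ribosome by a codon, and eIF5A helps at sequences that stall it. Many elongation factor mRNAs begin with a run of pyrimidines, the terminal oligopyrimidine (TOP) motif, through which mTOR signalling controls their translation.

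RNA libraries held 13029073 to 38258559 counts and footprint libraries 15598994 to 72044439, of which the 79 genes took 3.81% to 4.58% and 3.26% to 4.16%. Values per clone are CPM, counts relative to library sizes after TMM (trimmed mean) scaling. The edited genes checked the labels: Rpl5 RNA was 1534 to 1589 CPM in Rpl5+/- against 2283 to 2338 in WT, and Rpl11 RNA 1008 to 1150 in Rpl11+/- against 1665 to 1686. Rpl22 footprints were 2350 to 2786 CPM in WT, 1429 to 1596 in Rpl22+/-, and 274 and 317 in 2 clones of Rpl22-/-. They were 1544 in the library labelled Rpl22-/- clone 30, which is within the Rpl22+/- range. Rpl22 RNA was 933 to 967 CPM in WT, 664 to 712 in Rpl22+/- and 508.5 to 727 in Rpl22-/-. It thus did not separate Rpl22-/- from Rpl22+/-. Levels of Rpl10 and Rps15 check nothing for point changes. Rpl10 had 1884 to 1982 CPM in WT RNA but 3.08 to 3.84 CPM in WT footprints, and the reason was not tested. Rps15 RNA was 907 CPM in P131S clone 24 and 817 and 875 in H137Y clones 6 and 2, against 1433 to 1455 in WT and 1825 to 1935 in the other Rps15 clones. Of the markers of the line, Ptprc, Il3ra and Csf2rb were at 25.6 CPM or more in every RNA library. The summed RNA of 10 granulocyte and monocyte markers was 42.2 to 159 CPM in WT and 27.8 to 30.0 in Rpl10 R98S. P131S clones held 522 to 2791 CPM of them, and H137Y clones 529.8 to 3073, with clone 6 highest. In WT, P131S and H137Y, 4, 8 and 9 of the 10 were at a mean of 1 CPM or more, and only Elane was at 0 in WT. Rpl5+/- clones held 169 to 418 CPM. Erythroid markers (4 genes) summed to 139.7 to 375 CPM in H137Y and 122 to 145 in Rpl11+/-, against 95.7 to 117 in WT. The 4 genes did not move together. Mean Hba-a1 RNA was 129.8 CPM in H137Y, 58.29 in Rpl11+/- and 25.33 in WT, and mean Hbb-bt RNA was also above WT in both genotypes. Mean Gata1 RNA was 62.73, 53.19 and 60.58 CPM in the same order. The mean of Klf1 was above WT in H137Y and below WT in Rpl11+/-. A list of 11 pro-B and B lineage markers summed to 1144 to 1276 CPM in WT, and was above that range in all clones of P131S (2492 to 3136), H137Y (1615 to 2712), Rpl5+/- (1549 to 1581), Rpl11+/- (1303 to 2227) and Rpl22+/- (1457 to 1736). These sums differed between genotypes, and their part in the results below was not tested. In bulk libraries, fewer cells of a type and less RNA per cell cannot be told apart.

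Most of the factor genes were well expressed. After the filter on low counts, 65 of the 79 were tested in RNA, 71 in footprints and 69 for the ratio of the 2 (translational efficiency). The 14 left out in RNA, none above 0.32 CPM there, were the tissue-restricted paralogs Eef1a2, Eif5a2 and Eif4e1b, the Y-linked eIF2 gamma gene Eif2s3y, the Eif4a3 copies Eif4a3l1 and Eif4a3l2, and 8 copies of the eIF1A domain gene Eif1ad. In footprints 8 of the 14 were left out too. Levels of a gene are compared only with itself, since no gene lengths were used. Pairs of copies are uncertain: Eif3j1 had 72.5 CPM in WT RNA but 1.08 CPM in WT footprints, whereas Eif3j2 had 50.1 and 106, and how reads shared by near-identical copies were assigned is not given in the sources used here. The pseudogenes Eef1a1-ps1 and Eif3s6-ps2 reached 16.0 and 20.8 footprint CPM. Whether reads shared with copies or pseudogenes changed the footprint values of other members was not tested. Over 63 members with at least 5 CPM of WT RNA, the WT ratio of footprint CPM to RNA CPM had a median of 0.968, and it ran, apart from Eif3j1, from 0.0362 for the eIF4E inhibitor Eif4ebp2 to 2.77 for Eif2b3. RNA of some members hardly moved between genotypes: for the helicase helper Eif4h the means of the 8 genotypes lay between 387 and 420 CPM, and for Eif3d between 206 and 230.3.

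In RNA, more factor genes rose than fell in the 2 Rps15 genotypes, in Rpl10 R98S and in Rpl11+/-, and few changed in the other 3 genotypes. A gene was called where edgeR's quasi-likelihood test gave a Benjamini-Hochberg adjusted p of at most 0.05 over all 12814 genes tested. In Rps15 P131S against WT, 39 of 65 members were called, 31 higher and 8 lower, beside 47.0% of all genes (3031 higher and 2993 lower). Their median log2 change was 0.19, against -0.01 over all genes. Rps15 H137Y had 33 members called, 22 higher and 11 lower, with a median of 0.13, beside 41.0% of all genes (2697 higher and 2557 lower). In Rpl10 R98S 16 were called, 15 higher and 1 lower (median 0.08), beside 12.9% of all genes (874 higher and 773 lower). In Rpl11+/- 12 were called, 10 higher and 2 lower (median 0.07), beside 11.8% (734 higher and 775 lower). Rpl5+/- had 1 member called beside 1.04% of all genes, Rpl22+/- 1 beside 3.9%, and Rpl22-/- 2 beside 5.27%. Compared directly, P131S differed from H137Y in 25 members, 19 higher and 6 lower, beside 25.2% of all genes (1616 higher and 1618 lower). The 7 comparisons with WT share the same 3 WT clones.

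**Figure D1:**
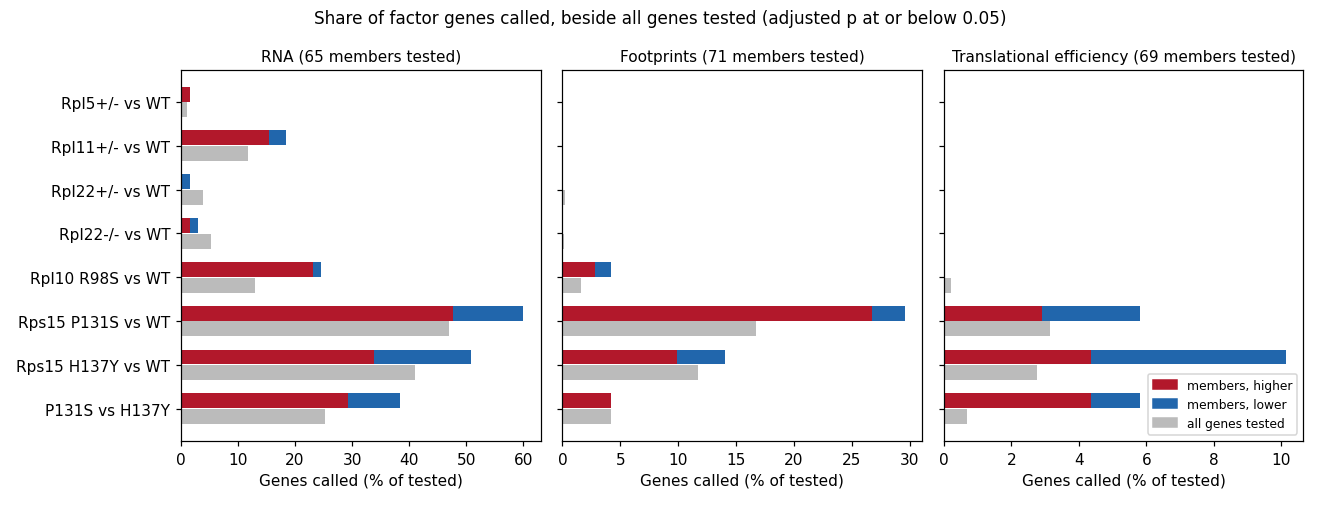
Percent of genes called in each comparison, with factor genes in red (higher) and blue (lower) and all genes tested in grey, for RNA (left), footprints (middle) and translational efficiency (right). In RNA the factor genes reach 39 of 65 in Rps15 P131S, where 47.0% of all genes were called.

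Each comparison was also fitted with each of its 6 clones left out in turn. Where this ended a call, the clones whose omission ended it (or, where most did, those without which it was kept) are given beside the call, with the highest adjusted p. In Rpl11+/- the RNA count fell to 5 without WT clone 3, 6 without Rpl11+/- clone 22 and 7 without Rpl11+/- clone 406 or WT clone 1, and rose to 20 without Rpl11+/- clone 414. In Rpl10 R98S it fell to 8 without clone A29 or WT clone 3 and 10 without WT clone 1. In Rpl5+/- it was 0 without any 1 clone, in Rpl22+/- 0 in all such fits but that without WT clone 1, and in Rpl22-/- 1 in all 6, also without the library labelled clone 30. The counts of the Rps15 genotypes against WT stayed within 28 to 40.

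At the footprint level, members were called in the Rps15 genotypes and Rpl10 R98S. In Rps15 P131S 21 of 71 members were called, 19 higher and 2 lower, beside 16.7% of 16217 genes tested (1365 higher and 1342 lower), with a median log2 change of 0.20 against -0.04 over all genes. The count fell to 11 without P131S clone 20, the P131S clone with the lowest sum of granulocyte and monocyte markers. Of the 21, 16 were also called in RNA, each in the same direction. In H137Y 10 were called, 7 higher and 3 lower (median 0.10), beside 11.7% (846 higher and 1044 lower). Of these, 5 were called in RNA in the same direction. The count was 5 without H137Y clone 2 or WT clone 3 and 6 without WT clone 1 or 2. In Rpl10 R98S 3 were called, 2 higher and 1 lower, beside 1.62%, and 1 without clone A30 or WT clone 1 or 2. P131S against H137Y gave 3, 3 higher and 0 lower, beside 4.17%, and 9 without P131S clone 24. No member was called in Rpl5+/- (beside 0.0123% of all genes), Rpl11+/- (beside 0.074%), Rpl22+/- (beside 0.253%) or Rpl22-/- (beside 0.105%). In these, 3, 10, 10 and 9 members had an unadjusted edgeR p under 0.05. DESeq2 called 1, 0, 1 and 2, beside 0.284%, 1.41%, 2.5% and 0.9% of all genes. With edgeR, 1 member was called in Rpl11+/- without clone 414 and 1 in Rpl22+/- without clone 16.

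Translational efficiency, tested as the difference between the footprint change and the RNA change in 1 fit of all 48 libraries, was called for a few members of the Rps15 genotypes. In P131S 4 of 69 members were called, 2 higher and 2 lower, beside 3.14% of 16568 genes (146 higher and 374 lower). With the clone as a block, since RNA and footprints of a clone share a lysate, 7 were called, beside 4.86% of all genes. The count was 1 without WT clone 3 and 2 without P131S clone 20 or WT clone 1 or 2. In H137Y 7 were called, 3 higher and 4 lower, beside 2.76% (101 higher and 356 lower), and 11 with the block, beside 3.83%. It was 2 without any 1 WT clone and 4 without H137Y clone 2 or 6. P131S against H137Y gave 4, 3 higher and 1 lower, beside 0.682%, and 0 without H137Y clone 6 or P131S clone 20 and 2 without H137Y clone 2 or P131S clone 24. No member was called in Rpl5+/-, Rpl11+/-, Rpl22+/-, Rpl22-/- or Rpl10 R98S, beside 0.0%, 0.0%, 0.00604%, 0.0121% and 0.217% of all genes. There, 3, 5, 7, 6 and 5 members had an unadjusted edgeR p under 0.05. DESeq2 called 0 in each, beside 0.175%, 0.254%, 0.531%, 0.35% and 1.0% of all genes. With edgeR, leaving out Rpl22+/- clone 16 gave 1 in Rpl22+/-.

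**Figure D2:**
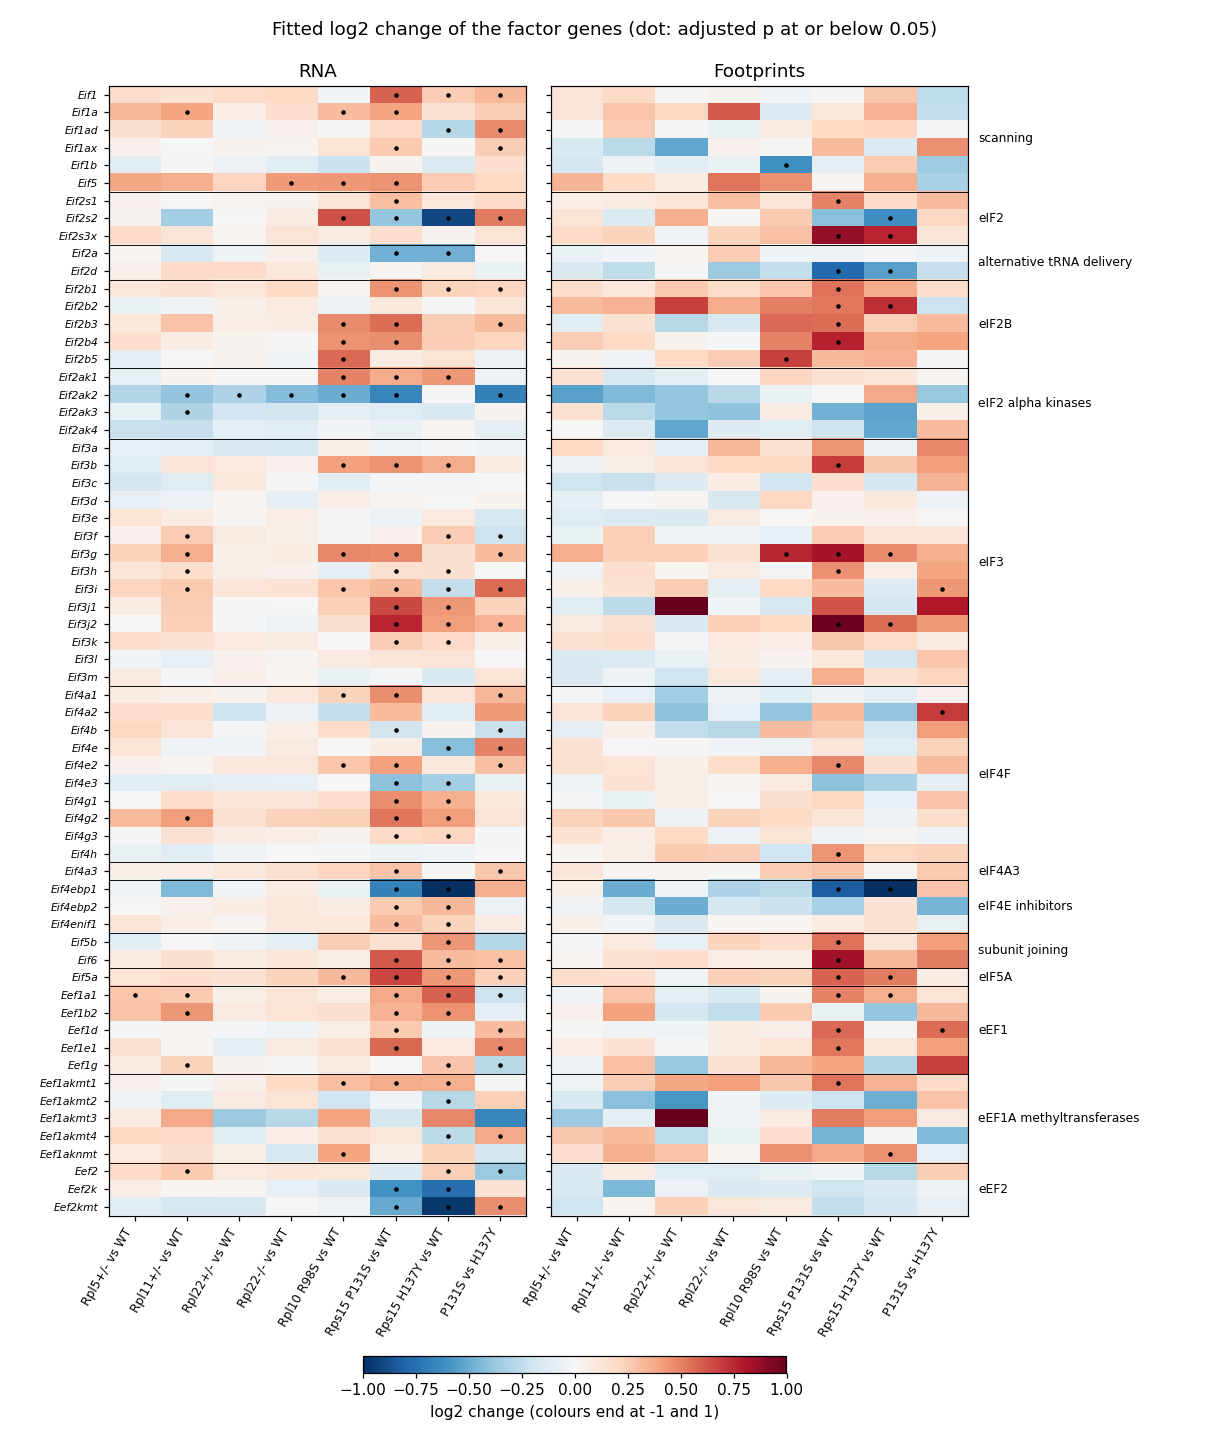
Fitted log2 change of each factor gene (rows, grouped by role) in each comparison (columns), in RNA (left) and footprints (right); a dot marks an adjusted p of at most 0.05. Eif2ak2 RNA is called lower in 5 of the 7 mutant genotypes, which share their WT clones, and Eif4ebp1 is lower in both Rps15 genotypes at both levels.

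The subunits of eIF2 moved apart. Eif2s2, the beta subunit, had 542, 541 and 506 CPM in WT RNA and 790.4, 827 and 854 in Rpl10 R98S, but 386, 345 and 482 in Rps15 P131S and 261, 314 and 272 in H137Y. The R98S clones all lie above WT and all clones of both Rps15 genotypes below it. The log2 changes were 0.64 ± 0.12 (adjusted p = 0.0021) in R98S, -0.39 ± 0.12 (adjusted p = 0.013, lost without P131S 63, at up to 0.083) in P131S and -0.91 ± 0.12 (adjusted p = 1.0e-05) in H137Y. Its footprints fell in H137Y as well, from 118, 130.0 and 111 to 67.2, 85.6 and 80.5 CPM, with a log2 change of -0.62 ± 0.18 (adjusted p = 0.030, kept only without H137Y 6, at up to 0.13). Eif2s2 also differed between clones of Rpl11+/-, where RNA was 418, 514 and 319.9 CPM in clones 406, 414 and 22 and the change did not pass the test.

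Eif2s3x, the X-linked gamma subunit that binds GTP and tRNA, gained footprints in both Rps15 genotypes, while edgeR called no change of its RNA (DESeq2 called the RNA change in P131S). Its WT footprints were 166, 164 and 192 CPM, against 274, 288 and 400.5 in P131S and 259, 266 and 361 in H137Y, with no overlap. The footprint change was 0.88 ± 0.17 (adjusted p = 0.0016) in P131S and 0.76 ± 0.17 (adjusted p = 0.0068) in H137Y. RNA was 347, 371 and 358 CPM in WT, 371, 377 and 463 in P131S and 354, 389 and 357 in H137Y, which overlap. Footprints per RNA changed by 0.69 ± 0.19 (adjusted p = 0.036, kept only without P131S 24, at up to 0.12) in P131S and 0.71 ± 0.19 (adjusted p = 0.031, kept only without H137Y 16 or H137Y 6, at up to 0.19) in H137Y. The clone block gave adjusted p = 0.011 and 0.011. Eif2s1, the alpha subunit that the stress kinases phosphorylate, rose in P131S at both levels. It changed by 0.30 ± 0.10 (adjusted p = 0.019, lost without WT 3, WT 1 or P131S 20, at up to 0.32) in RNA and 0.49 ± 0.15 (adjusted p = 0.030, kept only without P131S 24 or WT 2, at up to 0.16) in footprints.

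The 2 factors that can deliver tRNA without eIF2 fell at different levels. Eif2a RNA was 128, 125 and 126 CPM in WT, 92.7, 85.0 and 93.6 in P131S and 89.9, 94.5 and 88.0 in H137Y, with all Rps15 clones below WT. The RNA changes were -0.48 ± 0.07 (adjusted p = 1.2e-05) and -0.48 ± 0.07 (adjusted p = 1.8e-05), while its footprints overlapped WT in both genotypes. Eif2d, also a recycling factor for the small subunit, fell in footprints: 83.6, 77.4 and 91.6 CPM in WT, 52.4, 49.5 and 45.8 in P131S and 56.2, 50.8 and 66.5 in H137Y. Its RNA was 60.9, 64.6 and 62.3 CPM in WT, 66.4, 59.4 and 65.1 in P131S and 63.9, 72.3 and 63.2 in H137Y, so the groups overlap in RNA and not in footprints. The footprint change was -0.77 ± 0.13 (adjusted p = 5.1e-04) in P131S and -0.54 ± 0.13 (adjusted p = 0.011, lost without WT 1 or H137Y 6, at up to 0.057) in H137Y. The change of efficiency was -0.82 ± 0.14 (adjusted p = 7.1e-04) and -0.65 ± 0.14 (adjusted p = 0.0079, lost without WT 3, WT 1 or H137Y 6, at up to 0.12). Eif2d was also among the members of lowest p for efficiency in Rpl11+/- (-0.45 ± 0.14, adjusted p = 1.0) and Rpl22-/- (-0.48 ± 0.14, adjusted p = 0.54), and for RNA in Rpl22+/- (0.19 ± 0.07, adjusted p = 0.15), none of which passed.

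Subunits of eIF2B, the exchange factor of eIF2, rose in Rpl10 R98S and Rps15 P131S. In R98S RNA 3 of 5 were called, all higher, beside 12.9% of all genes. Eif2b5, the catalytic epsilon subunit, was at 101, 105 and 102 CPM in WT and 149, 157 and 151 in R98S, with no overlap. Its change was 0.57 ± 0.06 (adjusted p = 1.3e-05), the lowest p of any member in that comparison. Its footprints rose from 102, 100.4 and 105 to 170.5, 162 and 162 CPM, by 0.69 ± 0.14 (adjusted p = 0.013, kept only without R98S A29 or R98S A34, at up to 0.072). Eif2b4 (delta) rose by 0.45 ± 0.11 (adjusted p = 0.0090, lost without WT 3, at up to 0.056) and Eif2b3 (gamma) by 0.47 ± 0.11 (adjusted p = 0.0091, lost without R98S A29, at up to 0.052) in R98S RNA.

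In P131S, 3 of the 5 rose in RNA (beside 47.0% of all genes called) and 4 in footprints (beside 16.7%). Eif2b1 (alpha) changed by 0.45 ± 0.08 (adjusted p = 9.3e-05) in RNA and 0.54 ± 0.14 (adjusted p = 0.0092, lost without P131S 20, at up to 0.083) in footprints. Eif2b3 changed by 0.56 ± 0.11 (adjusted p = 3.8e-04) and 0.55 ± 0.15 (adjusted p = 0.014, lost without WT 3 or P131S 20, at up to 0.089), and Eif2b4 by 0.46 ± 0.11 (adjusted p = 0.0013) and 0.77 ± 0.14 (adjusted p = 6.8e-04). Eif2b2 (beta) rose in footprints only, by 0.53 ± 0.17 (adjusted p = 0.033, kept only without P131S 63 or WT 3, at up to 0.10), and Eif2b5 passed at neither level there. In H137Y Eif2b1 rose in RNA by 0.23 ± 0.08 (adjusted p = 0.021, lost without WT 3 or WT 2, at up to 0.060). Eif2b2 had 66.1, 56.1 and 64.6 footprint CPM in WT and 90.9, 108 and 113 in H137Y, a change of 0.74 ± 0.17 (adjusted p = 0.0064). Its RNA was 48.7, 46.8 and 46.6 CPM in WT and 44.4, 52.2 and 44.5 in H137Y. Its efficiency rose by 0.73 ± 0.18 (adjusted p = 0.017, kept only without H137Y 16 or H137Y 6, at up to 0.092). In other genotypes its values did not pass: 0.38 ± 0.18 (adjusted p = 1.0) in Rpl11+/-, 0.63 ± 0.18 (adjusted p = 0.26) in Rpl22+/- and 0.54 ± 0.18 (adjusted p = 0.27) in R98S for efficiency. Its footprint change in Rpl22+/- was 0.69 ± 0.17 (adjusted p = 0.091).

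**Figure D3:**
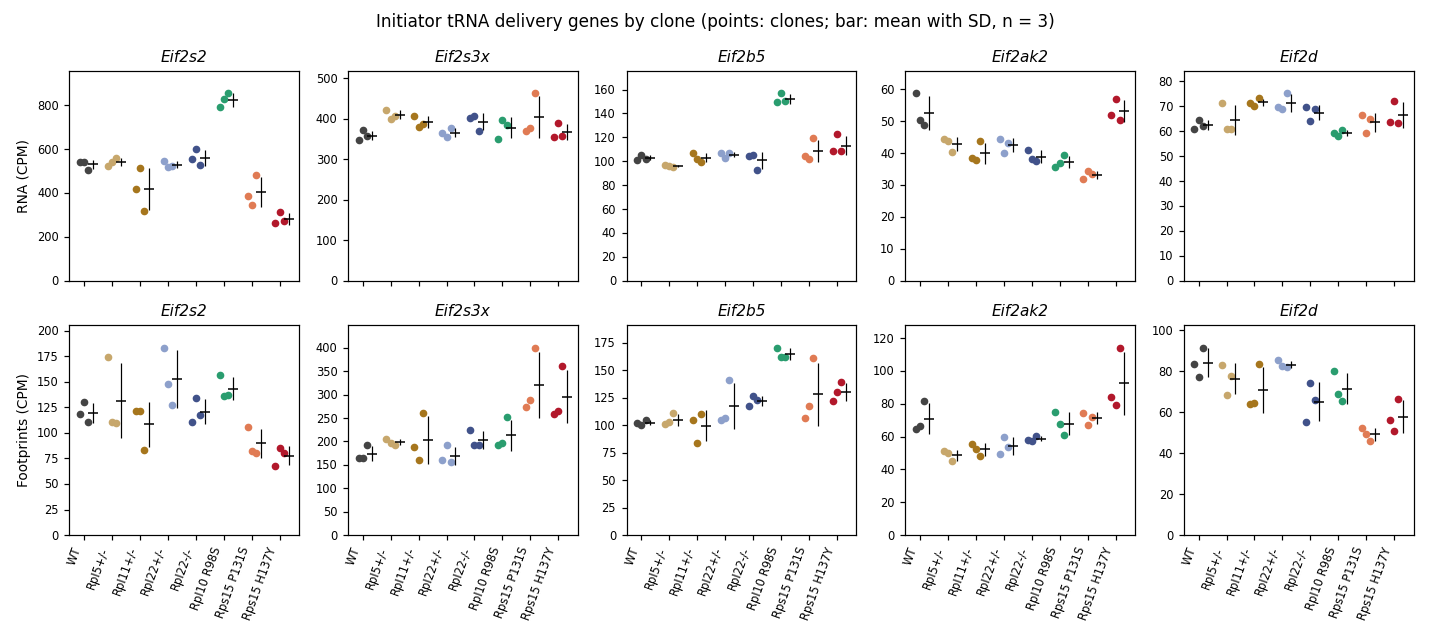
RNA (top) and footprint (bottom) CPM of 5 genes of initiator tRNA delivery in each clone (points), with the mean and SD of 3 clones beside them, for 8 genotypes. Eif2s2 RNA is at 790.4 to 854 CPM in Rpl10 R98S and 261 to 314 in Rps15 H137Y, and Eif2d separates the Rps15 clones from WT in footprints but not in RNA.

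Of the 4 kinases of eIF2 alpha, Eif2ak2, which encodes the double-stranded RNA sensor PKR, fell in RNA of 5 genotypes. Its RNA was 58.7, 50.4 and 48.6 CPM in WT (clone 3 highest), 35.6, 37.0 and 39.3 in R98S and 31.8, 34.3 and 33.5 in P131S, but 52.0, 57.0 and 50.3 in H137Y. All 3 clones of every mutant genotype but H137Y lie below WT. Against the same WT clones the changes were -0.30 ± 0.08 (adjusted p = 0.072) in Rpl5+/-, which did not pass, and -0.40 ± 0.08 (adjusted p = 0.0033) in Rpl11+/-. They were -0.30 ± 0.08 (adjusted p = 0.031, kept only without WT 1, at up to 0.23) in Rpl22+/- and -0.43 ± 0.08 (adjusted p = 0.0021) in Rpl22-/-, and -0.50 ± 0.08 (adjusted p = 4.4e-04) in R98S, -0.66 ± 0.08 (adjusted p = 1.8e-06) in P131S and 0.01 ± 0.08 (adjusted p = 0.91) in H137Y. P131S was lower than H137Y, with a log2 change of -0.68 ± 0.08 (adjusted p = 6.3e-06).

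Footprints of Eif2ak2 overlapped WT in P131S, with 64.5, 66.5 and 81.8 CPM in WT and 74.4, 67.2 and 72.1 in P131S, and its efficiency rose by 0.65 ± 0.15 (adjusted p = 0.010, lost without WT 3, at up to 0.095). Its footprint changes in Rpl5+/- (-0.54 ± 0.13, adjusted p = 0.54), Rpl11+/- (-0.44 ± 0.13, adjusted p = 0.19) and Rpl22+/- (-0.39 ± 0.13, adjusted p = 0.21) and its efficiency in R98S (0.41 ± 0.15, adjusted p = 0.34) did not pass. DESeq2 called the footprint change in Rpl5+/-. Eif2ak1, the haem-regulated kinase HRI, rose in RNA from 56.9, 53.9 and 53.3 CPM in WT to 76.7, 76.4 and 78.5 in R98S, 71.5, 71.1 and 69.7 in P131S and 66.0, 86.6 and 69.1 in H137Y. These changes were 0.50 ± 0.07 (adjusted p = 2.5e-04), 0.37 ± 0.07 (adjusted p = 3.9e-04) and 0.43 ± 0.07 (adjusted p = 1.1e-04). Eif2ak3, the endoplasmic reticulum kinase PERK, fell in RNA of Rpl11+/-, with a log2 change of -0.30 ± 0.09 (adjusted p = 0.038, kept only without Rpl11+/- 414 or WT 2, at up to 0.19). Eif2ak4, the amino acid sensor GCN2, was not called by edgeR in any comparison at any level, and DESeq2 called its RNA in Rpl11+/-.

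Among the factors of scanning and start codon choice, RNA of 4 of 6 rose in P131S, where 47.0% of all genes were called. Eif1, which keeps the small subunit open until a start codon is found, had 890.2, 897 and 849.7 CPM in WT and 1277, 1284 and 1413 in P131S, a change of 0.59 ± 0.09 (adjusted p = 3.3e-05). Its footprints were 1785, 1681 and 2285 in WT and 1842, 1859 and 2088 in P131S, which overlap. Its efficiency fell there, with a log2 change of -0.60 ± 0.16 (adjusted p = 0.028, lost with any 1 of the 6 left out, at up to 0.34). In H137Y, Eif1 RNA was 1156, 822 and 1173 CPM in clones 16, 6 and 2, so clone 6 overlaps WT, and the change was 0.26 ± 0.09 (adjusted p = 0.031, kept only without H137Y 6, at up to 0.18). The eIF1A genes Eif1a and Eif1ax rose in P131S by 0.39 ± 0.10 (adjusted p = 0.0027) and 0.26 ± 0.06 (adjusted p = 0.0022). Eif1a RNA also rose in Rpl11+/- by 0.40 ± 0.10 (adjusted p = 0.013, lost without WT 1 or Rpl11+/- 22, at up to 0.12) and in R98S by 0.31 ± 0.10 (adjusted p = 0.045, lost with any 1 of the 6 left out, at up to 0.14).

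RNA of Eif5, the GTPase activator of eIF2, rose by 0.42 ± 0.12 (adjusted p = 0.048, lost with any 1 of the 6 left out, at up to 0.16) in Rpl22-/-. It rose by 0.44 ± 0.12 (adjusted p = 0.023, kept only without R98S A30 or R98S A34, at up to 0.11) in R98S and 0.45 ± 0.12 (adjusted p = 0.0050, lost without P131S 20, at up to 0.076) in P131S. Eif1ad, an eIF1A domain protein, fell in H137Y RNA, with a log2 change of -0.28 ± 0.09 (adjusted p = 0.012). Eif1b, the paralog of Eif1, fell in footprints of R98S from 163, 176 and 219.7 to 119, 120.5 and 126 CPM, with a log2 change of -0.61 ± 0.15 (adjusted p = 0.043, kept only without WT 3, at up to 0.24). Footprints of Eif1a and Eif5 were those of lowest p in Rpl22-/-, at 0.62 ± 0.15 (adjusted p = 0.16) and 0.53 ± 0.14 (adjusted p = 0.18), and did not pass.

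The scaffold eIF3 has 14 genes here, all tested in RNA, and its subunits did not move as 1 unit. In P131S RNA 7 rose and none fell, a share called of 50.0% beside 47.0% of all genes. In H137Y 6 rose and 1 fell (50.0% beside 41.0%), in Rpl11+/- 4 rose (28.6% beside 11.8%) and in R98S 3 rose (21.4% beside 12.9%). The shares in the Rps15 genotypes lie near those of all genes. The P131S changes over the 14 ran from -0.06 to 0.76. Eif3g, an RNA-binding subunit, rose at both levels in R98S and P131S. Its footprints were 254, 218 and 238 CPM in WT, 389, 418 and 394 in R98S, 382, 374 and 503 in P131S and 332, 318 and 336 in H137Y, all above WT. The footprint changes were 0.76 ± 0.12 (adjusted p = 0.0021), 0.83 ± 0.12 (adjusted p = 1.3e-04) and 0.47 ± 0.12 (adjusted p = 0.011, lost without WT 2, at up to 0.057). Its RNA rose by 0.48 ± 0.09 (adjusted p = 0.0016) in R98S, 0.47 ± 0.09 (adjusted p = 2.6e-04) in P131S and 0.37 ± 0.09 (adjusted p = 0.012, lost without WT 3, Rpl11+/- 406 or Rpl11+/- 22, at up to 0.061) in Rpl11+/-.

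Eif3i, a WD repeat subunit, moved in opposite directions in the Rps15 genotypes. Its RNA was 255, 266 and 265 CPM in WT, 332, 319 and 332 in P131S and 212, 230.0 and 225 in H137Y, with no overlap between any of the 3 groups. It rose by 0.33 ± 0.06 (adjusted p = 2.1e-04) in P131S and fell, with a log2 change of -0.24 ± 0.06 (adjusted p = 0.0041) in H137Y. The direct difference was 0.56 ± 0.06 (adjusted p = 2.4e-06). Footprints of Eif3i differed between them by 0.44 ± 0.12 (adjusted p = 0.049, kept only without P131S 63 or H137Y 2, at up to 0.16). It also rose in RNA of Rpl11+/- by 0.26 ± 0.06 (adjusted p = 0.0095, lost without WT 3, at up to 0.053) and of R98S by 0.28 ± 0.06 (adjusted p = 0.0057).

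Eif3b, part of the core, rose in RNA by 0.41 ± 0.10 (adjusted p = 0.011, lost without WT 3 or R98S A29, at up to 0.061) in R98S, 0.45 ± 0.10 (adjusted p = 0.0012) in P131S and 0.37 ± 0.10 (adjusted p = 0.0060, lost without H137Y 6, at up to 0.064) in H137Y. Its P131S footprints rose by 0.69 ± 0.13 (adjusted p = 0.0011). Eif3j2, a copy of the loosely bound subunit j, had 93.8, 121 and 103 footprint CPM in WT, 167, 205 and 256 in P131S and 145, 139.7 and 184 in H137Y. Its footprint changes were 0.98 ± 0.17 (adjusted p = 6.8e-04) and 0.56 ± 0.17 (adjusted p = 0.040, kept only without H137Y 6 or WT 2, at up to 0.18). Its RNA changes were 0.76 ± 0.12 (adjusted p = 4.0e-05) and 0.42 ± 0.12 (adjusted p = 0.0091), with the uncertainty of copies given above. Eif3j1 RNA rose by 0.66 ± 0.12 (adjusted p = 1.3e-04) in P131S and 0.43 ± 0.12 (adjusted p = 0.0062) in H137Y. Smaller changes were those of Eif3h RNA, 0.15 ± 0.05 (adjusted p = 0.016, lost without P131S 63 or P131S 20, at up to 0.081) in P131S. Its RNA also rose by 0.16 ± 0.05 (adjusted p = 0.015, lost without H137Y 6, at up to 0.056) in H137Y and 0.17 ± 0.05 (adjusted p = 0.029, kept only without Rpl11+/- 414, at up to 0.11) in Rpl11+/-. Its P131S footprints rose by 0.46 ± 0.12 (adjusted p = 0.0091, lost without P131S 20, at up to 0.097). Eif3k RNA rose by 0.24 ± 0.06 (adjusted p = 0.0028) in P131S and 0.19 ± 0.06 (adjusted p = 0.016, lost without WT 2, at up to 0.061) in H137Y. Eif3a, c, d, e, l and m were called by edgeR in no comparison in RNA or footprints. DESeq2 called Eif3a and Eif3m footprints in P131S against WT. Between P131S and H137Y it called Eif3a and Eif3c footprints and Eif3e RNA. Eif3a had one of the lowest p-values in Rpl22+/- RNA (-0.15 ± 0.06, adjusted p = 0.25) and in Rpl22-/- efficiency (0.48 ± 0.17, adjusted p = 0.79), neither of which passed.

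In the cap-binding group, RNA of the 3 scaffold genes rose in both Rps15 genotypes while that of the inhibitor Eif4ebp1 fell. Eif4g1, the scaffold that joins the cap, the helicase and poly(A)-binding protein, rose in RNA by 0.47 ± 0.08 (adjusted p = 1.4e-04) in P131S and 0.36 ± 0.08 (adjusted p = 0.0019) in H137Y. Its efficiency in H137Y fell, with a log2 change of -0.46 ± 0.13 (adjusted p = 0.036, kept only without H137Y 2, at up to 0.34). Its paralog Eif4g3 rose by 0.19 ± 0.07 (adjusted p = 0.022, kept only without P131S 24 or WT 1, at up to 0.063) and 0.21 ± 0.07 (adjusted p = 0.013, lost without H137Y 16, at up to 0.055). The homologue Eif4g2 (DAP5), which does not bind eIF4E, rose by 0.54 ± 0.12 (adjusted p = 0.0012) in P131S. It rose by 0.42 ± 0.12 (adjusted p = 0.0092, lost without H137Y 6, at up to 0.063) in H137Y and 0.41 ± 0.12 (adjusted p = 0.031, kept only without Rpl11+/- 414, at up to 0.14) in Rpl11+/-. The helicase Eif4a1 rose by 0.46 ± 0.07 (adjusted p = 1.0e-05) in P131S and 0.22 ± 0.07 (adjusted p = 0.030, lost with any 1 of the 6 left out, at up to 0.13) in R98S. Its footprints were 2512, 3458 and 3526 CPM in WT and 2707, 3482 and 2995 in P131S, and their change of -0.05 ± 0.21 (adjusted p = 0.92) did not pass.

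Eif4e, the cap-binding protein itself, had 273, 274 and 259.9 CPM in WT RNA and 188, 226 and 189 in H137Y, a fall, with a log2 change of -0.42 ± 0.09 (adjusted p = 8.6e-04). Its footprints, 492, 430.1 and 529 CPM in WT and 427, 427 and 495 in H137Y, overlap. The cap-binding paralog Eif4e2 (4EHP) rose in RNA by 0.28 ± 0.07 (adjusted p = 0.018, kept only without R98S A30 or WT 2, at up to 0.072) in R98S and 0.41 ± 0.07 (adjusted p = 1.5e-04) in P131S. In P131S footprints it rose by 0.48 ± 0.13 (adjusted p = 0.013, lost without WT 3 or P131S 20, at up to 0.076). Eif4e3 RNA fell, with log2 changes of -0.41 ± 0.11 (adjusted p = 0.0041) in P131S and -0.34 ± 0.11 (adjusted p = 0.016, lost without WT 2, H137Y 16 or H137Y 2, at up to 0.072) in H137Y. The helicase helper Eif4b fell in P131S RNA, with a log2 change of -0.19 ± 0.06 (adjusted p = 0.017, lost without P131S 24, at up to 0.080). Its partner Eif4h rose in P131S footprints by 0.44 ± 0.12 (adjusted p = 0.014, lost without WT 2 or P131S 20, at up to 0.13). Eif4a3, the helicase of the exon junction complex, rose in P131S RNA by 0.28 ± 0.08 (adjusted p = 0.0043).

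The eIF4E-binding proteins block eIF4E until mTOR phosphorylates them, and the paralogs Eif4ebp1 and Eif4ebp2 moved in opposite directions in RNA of the Rps15 genotypes. Eif4ebp1 RNA was 220.1, 215 and 219 CPM in WT, 162, 118 and 130.7 in P131S and 99.0, 117 and 102 in H137Y. Its footprints were 134, 90.9 and 110.5 CPM in WT, 74.7, 55.0 and 59.7 in P131S and 40.6, 56.5 and 58.2 in H137Y. Every Rps15 clone lies below every WT clone at both levels. The RNA changes were -0.67 ± 0.19 (adjusted p = 0.0080) and -1.04 ± 0.19 (adjusted p = 3.5e-04). The footprint changes were -0.82 ± 0.23 (adjusted p = 0.018, kept only without P131S 24 or WT 2, at up to 0.11) and -1.11 ± 0.23 (adjusted p = 0.0038). Clones of Rpl11+/- differed among themselves, at 136.8, 239.7 and 104 CPM in clones 406, 414 and 22, and the change there, -0.45 ± 0.19 (adjusted p = 0.14), did not pass. Eif4ebp2 RNA rose from 336, 351 and 363 CPM in WT to 412, 415 and 433 in P131S and 415, 519 and 380.2 in H137Y, by 0.26 ± 0.08 (adjusted p = 0.0085) and 0.32 ± 0.08 (adjusted p = 0.0022). Its footprints, 12.2, 12.4 and 13.4 CPM in WT, were low beside its RNA and passed no test, and its efficiency in Rpl22+/- was -0.56 ± 0.22 (adjusted p = 0.49). Eif4enif1 (4E-T), which carries eIF4E into the nucleus, rose in RNA by 0.31 ± 0.07 (adjusted p = 0.0015) and 0.23 ± 0.07 (adjusted p = 0.015, lost without WT 3 or H137Y 16, at up to 0.098). Eif4ebp3 was at 0.175 CPM in WT RNA.

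Both factors of subunit joining rose at 1 level or both in the Rps15 genotypes. Eif6, which holds the large subunit apart from the small one, had 113, 109 and 112 CPM in WT RNA, 162, 169 and 178 in P131S and 128, 156 and 133 in H137Y, with no overlap with WT. The RNA changes were 0.61 ± 0.07 (adjusted p = 5.1e-07) and 0.32 ± 0.07 (adjusted p = 6.0e-04), and P131S exceeded H137Y by 0.29 ± 0.07 (adjusted p = 0.0026). Footprints rose in P131S by 0.84 ± 0.15 (adjusted p = 6.8e-04). Eif5b, the GTPase of joining, rose in RNA of H137Y by 0.44 ± 0.11 (adjusted p = 0.0025). It rose in footprints of P131S by 0.55 ± 0.16 (adjusted p = 0.022, kept only without P131S 24 or WT 2, at up to 0.10). Eif5a, whose hypusine residue helps stalled ribosomes, had 1598, 1694 and 1626 CPM in WT RNA, 1999, 2107 and 2055 in R98S, 2477, 2368 and 2976 in P131S and 2225, 2068 and 2354 in H137Y, all above WT. It rose in RNA by 0.33 ± 0.07 (adjusted p = 0.0039), 0.67 ± 0.07 (adjusted p = 2.9e-07) and 0.43 ± 0.07 (adjusted p = 4.2e-05). In footprints it rose by 0.59 ± 0.12 (adjusted p = 0.0022) in P131S and 0.52 ± 0.12 (adjusted p = 0.0087, lost without WT 3 or H137Y 2, at up to 0.061) in H137Y. In Rpl22-/-, Eif5a and Eif2b1 had the lowest p-values after the called members, at 0.22 ± 0.07 (adjusted p = 0.060) and 0.20 ± 0.08 (adjusted p = 0.16), and did not pass.

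RNA of Eef1a1, the gene of the tRNA carrier, rose in 4 genotypes. Its RNA was 13140, 12810 and 12580 CPM in WT, 15160, 15440 and 16030 in Rpl5+/-, 15360, 16020 and 14770 in Rpl11+/-, 16290, 16690 and 17090 in P131S and 18140, 21740 and 18020 in H137Y, all above WT. H137Y clone 6 is highest. The changes were 0.28 ± 0.06 (adjusted p = 0.026, lost with any 1 of the 6 left out, at up to 0.17), 0.26 ± 0.06 (adjusted p = 0.0058), 0.38 ± 0.06 (adjusted p = 2.1e-05) and 0.59 ± 0.06 (adjusted p = 1.3e-07). H137Y exceeded P131S, with a P131S minus H137Y difference of -0.21 ± 0.06 (adjusted p = 0.0099, lost without H137Y 6, at up to 0.054). Footprints rose in P131S from 8614, 8689 and 9337 to 12370, 11090 and 14090 CPM, by 0.50 ± 0.12 (adjusted p = 0.0056). In H137Y they rose by 0.36 ± 0.12 (adjusted p = 0.049, lost with any 1 of the 6 left out, at up to 0.17). Its efficiency in Rpl5+/- was -0.32 ± 0.13 (adjusted p = 1.0) and did not pass.

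Eef1b2, the exchange factor subunit that recharges eEF1A, had 1618, 1606 and 1605 CPM in WT RNA, 2172, 1972 and 2398 in Rpl11+/-, 1878, 2006 and 2270 in P131S and 2146, 2087 and 2356 in H137Y. It rose by 0.44 ± 0.07 (adjusted p = 7.0e-04), 0.35 ± 0.07 (adjusted p = 4.5e-04) and 0.45 ± 0.07 (adjusted p = 5.0e-05), and its 0.28 ± 0.07 (adjusted p = 0.054) in Rpl5+/- did not pass. In H137Y its footprints were 1364, 1238 and 1468 CPM against 1789, 1750 and 1793 in WT, all below, and their change of -0.39 ± 0.14 (adjusted p = 0.086) did not pass. Footprints per RNA fell from 1.11, 1.09 and 1.117 to 0.636, 0.593 and 0.623. The change of efficiency was -0.86 ± 0.16 (adjusted p = 0.0014) in H137Y and -0.44 ± 0.16 (adjusted p = 0.13) in P131S, where the clone block gave adjusted p = 0.011.

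Eef1g, the structural subunit of the exchange factor, rose in RNA of Rpl11+/- by 0.22 ± 0.04 (adjusted p = 0.0035) and of H137Y by 0.28 ± 0.04 (adjusted p = 5.1e-05). It had 2208, 2206 and 2187 CPM in WT and 2632, 2737 and 2654 in H137Y, but had 2128, 2276 and 2224 in P131S. Its efficiency was 0.295, 0.403 and 0.498 footprints per RNA in P131S and 0.218, 0.158 and 0.242 in H137Y, which do not overlap. The direct difference was 0.96 ± 0.22 (adjusted p = 0.025, lost without P131S 63, P131S 20 or H137Y 6, at up to 0.17). Eef1d, another exchange subunit, rose in P131S by 0.26 ± 0.07 (adjusted p = 0.0066, lost without P131S 20, at up to 0.065) in RNA and 0.57 ± 0.10 (adjusted p = 5.8e-04) in footprints. Its footprints were 613, 764 and 826 CPM in P131S and 534, 459.9 and 501 in H137Y, a difference of 0.56 ± 0.10 (adjusted p = 0.0023). Eef1e1, a scaffold of the tRNA synthetase complex, rose in P131S by 0.57 ± 0.12 (adjusted p = 7.1e-04) in RNA and 0.53 ± 0.16 (adjusted p = 0.028, lost without WT 3, WT 2 or P131S 20, at up to 0.19) in footprints.

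Eef2, the translocase, rose in RNA of H137Y by 0.24 ± 0.08 (adjusted p = 0.020, lost without WT 3, WT 2 or H137Y 6, at up to 0.22). It rose in RNA of Rpl11+/- by 0.26 ± 0.08 (adjusted p = 0.037, lost with any 1 of the 6 left out, at up to 0.12). In H137Y its RNA was 4606, 5837 and 4271 CPM, with clone 6 highest, against 4165, 4066 and 4214 in WT and 3856, 4104 and 3396 in P131S. Its H137Y footprints, 3085, 2933 and 3358 CPM, lay below the 3774, 3711 and 3878 of WT, and efficiency fell, with a log2 change of -0.54 ± 0.13 (adjusted p = 0.016, kept only without H137Y 2, at up to 0.26). P131S differed from H137Y by -0.37 ± 0.08 (adjusted p = 0.0019) in RNA and 0.62 ± 0.13 (adjusted p = 0.018, lost without P131S 20 or H137Y 6, at up to 0.18) in efficiency. The efficiency of Eef2 in Rpl5+/- was -0.35 ± 0.13 (adjusted p = 1.0), which did not pass.

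Eef2k, the kinase that inhibits eEF2, had 117, 119.5 and 119.7 CPM in WT RNA, 87.1, 87.1 and 60.0 in P131S and 61.9, 91.9 and 57.9 in H137Y. It fell, with log2 changes of -0.61 ± 0.15 (adjusted p = 0.0025) and -0.75 ± 0.15 (adjusted p = 5.1e-04). Its footprints in Rpl11+/- changed by -0.45 ± 0.16 (adjusted p = 0.31), which did not pass. The eEF2 lysine methyltransferase Eef2kmt had 24.9, 26.6 and 22.7 CPM in WT, 18.7, 17.3 and 16.2 in P131S and 11.2, 14.1 and 12.7 in H137Y, 3 groups with no overlap. Its RNA fell, with log2 changes of -0.51 ± 0.10 (adjusted p = 2.6e-04) and -0.97 ± 0.10 (adjusted p = 2.7e-07), while footprints overlapped WT. Its efficiency rose in H137Y by 0.79 ± 0.18 (adjusted p = 0.0094, lost without WT 2 or H137Y 2, at up to 0.082). Among the methyltransferases of eEF1A, Eef1akmt1 rose in RNA by 0.30 ± 0.09 (adjusted p = 0.040, lost with any 1 of the 6 left out, at up to 0.15) in R98S, 0.37 ± 0.09 (adjusted p = 0.0027) in P131S and 0.36 ± 0.09 (adjusted p = 0.0042) in H137Y. It rose in P131S footprints by 0.54 ± 0.13 (adjusted p = 0.0075). Eef1aknmt rose in R98S RNA by 0.40 ± 0.12 (adjusted p = 0.039, lost with any 1 of the 6 left out, at up to 0.16) and in H137Y footprints by 0.46 ± 0.14 (adjusted p = 0.033, kept only without H137Y 16, at up to 0.14). In H137Y RNA Eef1akmt2 and Eef1akmt4 fell, with log2 changes of -0.27 ± 0.09 (adjusted p = 0.024, lost without WT 3, WT 1 or H137Y 16, at up to 0.092) and -0.26 ± 0.10 (adjusted p = 0.046, kept only without H137Y 6, at up to 0.13).

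**Figure D4:**
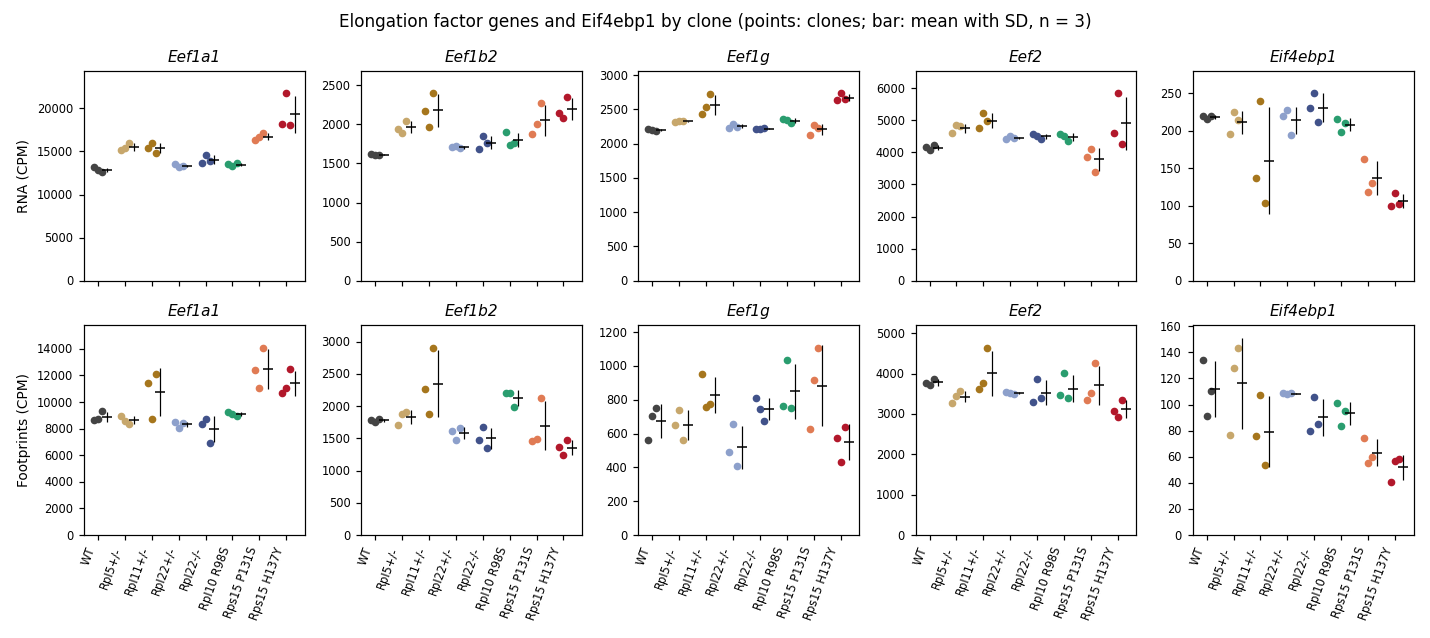
RNA (top) and footprint (bottom) CPM of 4 elongation factor genes and Eif4ebp1 in each clone (points), with the mean and SD of 3 clones beside them, for 8 genotypes. Eef1b2 RNA is at 2087 to 2356 CPM in Rps15 H137Y, above the 1605 to 1618 of WT, while its footprints are at 1238 to 1468, below the 1750 to 1793 of WT.

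The TOP mRNAs among these genes, taken as 9 members from textbook lists (Eef1a1, Eef1b2, Eef1d, Eef1g, Eef2, Eif3e, Eif3f, Eif3h and Eif4b), were counted as a group, with no test of the group. In Rpl11+/- RNA 6 of 9 rose and none fell, beside 11.8% of all genes called, with a median log2 change of 0.22 against 0.07 over all 65 members and 0.00 over all genes. In H137Y RNA 6 rose and none fell (median 0.24), beside 41.0%. In P131S 4 rose and 1, Eif4b, fell (median 0.05), a share of 55.6% that lies near the 47.0% of all genes. Eif3f was among those that rose, by 0.25 ± 0.06 (adjusted p = 0.014, lost without WT 3, WT 2 or Rpl11+/- 22, at up to 0.095) in Rpl11+/- and 0.26 ± 0.06 (adjusted p = 0.0030) in H137Y. For efficiency, 2 of 9 (Eef1b2 and Eef2) fell in H137Y, beside 2.76% of all genes called. The median there was -0.21, against -0.01 over all members tested. In P131S edgeR without the clone block and DESeq2 called none, beside 3.14% and 5.48% of all genes. There, 4 had an unadjusted edgeR p under 0.05, and the median was 0.18. With the clone block edgeR called Eef1b2, beside 4.86% of all genes. Footprints per RNA of Eef1b2 were 0.779, 0.744 and 0.939 in P131S against 1.106, 1.09 and 1.117 in WT, a fall. Between P131S and H137Y, 3 of 9 (Eef1g, Eef2 and Eif4b) were called, all higher in P131S, beside 0.682% of all genes. The median difference was 0.39 over the 9 and 0.04 over all members. Eif4b, for which this difference was 0.64 ± 0.16 (adjusted p = 0.046, kept only without P131S 63, at up to 0.24), had an adjusted p of 0.063 under the clone block. In Rpl5+/- efficiency the median of the 9 was -0.25, and 2 had an unadjusted edgeR p under 0.05. There edgeR and DESeq2 called none, beside 0.0% and 0.175% of all genes.

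The transcription starts of these genes are shown because the TOP motif is defined there, as a C at the cap followed by pyrimidines. Windows from 10 bases before to 20 bases from the RefSeq start (GRCm38.p6) are given 5′ to 3′ on the transcribed strand. The start follows the first 10 bases. Capitals mark the longest run of a C followed by at least 4 C or T.
Eef1a1, chr9:78481705-78481734 (-): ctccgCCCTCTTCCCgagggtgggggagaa
Eef1b2, chr1:63176821-63176850 (+): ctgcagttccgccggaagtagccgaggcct
Eef2, chr10:81176621-81176650 (+): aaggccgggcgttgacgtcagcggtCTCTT
Eif3f, chr7:108934405-108934434 (+): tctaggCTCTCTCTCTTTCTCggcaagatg
Eif4b, chr15:102073763-102073792 (+): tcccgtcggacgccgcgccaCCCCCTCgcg
Eif2s3x, chrX:94212632-94212661 (-): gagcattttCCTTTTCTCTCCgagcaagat
Of the 9, the first 5 had a RefSeq window, and 4 of the 5 hold such a run. Eif3e, Eif3h, Eef1d and Eef1g had none in the table. Eif2s3x is no member of the list and is shown, chosen after its values were seen, since its efficiency rose in both Rps15 genotypes. A run of this kind is in 35.8% of all 32851 start windows and in 26 of the 69 windows of factor genes (37.7%), which covered 54 of the 79 genes. The run lies across the RefSeq start in Eef1a1, Eif3f and Eif2s3x and after it in Eef2 and Eif4b. RefSeq starts may differ from those used in Ba/F3 cells, and a run is a description of these letters only.

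**Figure D5:**
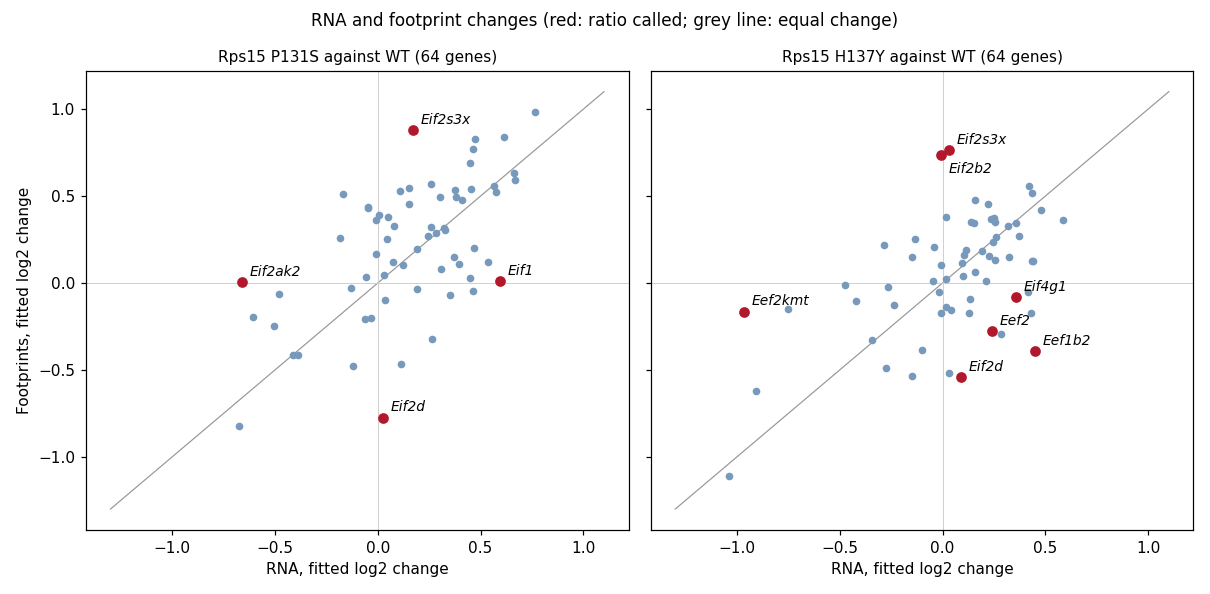
Fitted footprint log2 change against RNA log2 change for 64 of the 65 factor genes tested at both levels (Eif4ebp3, of few counts, is not drawn), in Rps15 P131S (left) and Rps15 H137Y (right) against WT; the line marks equal changes and red points a called change of efficiency. Eif2s3x lies above the line and Eif2d below it in both panels, and Eef1b2 and Eef2 lie in the lower right part for H137Y.

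Fitted against each other, without WT in the contrast, the 2 Rps15 genotypes differed in members of several roles. P131S was higher in RNA of Eif4e (0.50 ± 0.09, adjusted p = 4.8e-04), Eif1ad (0.47 ± 0.09, adjusted p = 4.9e-04) and Eif4a1 (0.33 ± 0.07, adjusted p = 9.5e-04). It was also higher in RNA of Eef2kmt (0.46 ± 0.10, adjusted p = 0.0019), Eif2s2 (0.52 ± 0.12, adjusted p = 0.0042), Eef1d (0.31 ± 0.07, adjusted p = 0.0043) and Eif4e2 (0.30 ± 0.07, adjusted p = 0.0048). H137Y was higher in RNA of Eef1g, with a P131S minus H137Y change of -0.28 ± 0.04 (adjusted p = 1.7e-04). In footprints, Eif4a2, a helicase paralog, had 129.6, 149 and 162 CPM in P131S and 102, 71.3 and 98.9 in H137Y, a difference of 0.70 ± 0.14 (adjusted p = 0.0076). Its RNA was 191, 209 and 274 CPM in P131S and 188, 96.2 and 219 in H137Y clones 16, 6 and 2, of which clone 6 is lowest. Efficiency of the methyltransferase Eef1akmt4 was lower in P131S, with a log2 change of -0.82 ± 0.19 (adjusted p = 0.032, kept only without P131S 63, at up to 0.27). A fit of these 2 genotypes alone called 2 members in RNA, Eif2ak2 and Eif3i, beside 3.13% of all genes. It called 0 in footprints and 0 in efficiency, beside 0.243% and 0.0205%. When all genotypes shared the estimate of spread, 25, 3 and 4 were called, beside 25.2%, 4.17% and 0.682%.

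A further 44 genes of the same pathways that carry other names, listed by role (poly(A)-binding proteins, mTOR and MNK signalling, scanning helicases, reinitiation, eIF2 dephosphorylation, hypusine and diphthamide synthesis, termination, mitochondrial factors), were counted the same way, 43 of them tested in RNA. They were not refitted without single clones. The genes named below are some of the called ones, taken from at most 4 of lowest p per comparison and level. A gene may thus also be called where it is not named. In P131S RNA 22 rose and 4 fell, or 60.5% beside 47.0% of all genes. In H137Y 14 rose and 5 fell (44.2% beside 41.0%). In R98S 5 rose (11.6% beside 12.9%), and in Rpl11+/- 5 rose and 2 fell (16.3% beside 11.8%). In Rpl5+/- RNA edgeR called 0 of them, and 10 had an unadjusted edgeR p under 0.05. Ppp1r15a (GADD34), the stress-induced subunit that directs dephosphorylation of eIF2 alpha, rose in RNA of Rpl11+/- by 0.72 ± 0.17 (adjusted p = 0.012). It also rose in Rpl22+/- by 0.73 ± 0.17 (adjusted p = 0.022) and in Rpl22-/- by 0.69 ± 0.17 (adjusted p = 0.024). Its footprints rose in Rpl22+/- by 0.97 ± 0.18 (adjusted p = 0.020). Of the 4 genes listed for eIF2 dephosphorylation and GCN2 partners, 3 rose in H137Y RNA (beside 41.0% of all genes called) and 2 in P131S RNA (47.0%). Ppp1r15b, the constitutive paralog of Ppp1r15a, fell in H137Y footprints, with a log2 change of -1.05 ± 0.13 (adjusted p = 3.7e-05). Mcts1, a reinitiation factor that works with Denr, fell in H137Y RNA, with a log2 change of -0.71 ± 0.08 (adjusted p = 1.1e-06). Denr rose in P131S RNA by 0.64 ± 0.07 (adjusted p = 1.2e-06), while its efficiency fell there, with a log2 change of -0.78 ± 0.17 (adjusted p = 0.0066). Pabpc1, the TOP gene of poly(A)-binding protein, rose in H137Y RNA by 0.78 ± 0.09 (adjusted p = 1.6e-06) while its efficiency fell, with a log2 change of -0.66 ± 0.16 (adjusted p = 0.016). Larp1, which binds TOP mRNAs, lost efficiency, with log2 changes of -0.53 ± 0.14 (adjusted p = 0.019) in P131S and -0.61 ± 0.14 (adjusted p = 0.0076) in H137Y. Mknk2, a kinase of eIF4E, lost efficiency in P131S, with a log2 change of -1.26 ± 0.23 (adjusted p = 7.8e-04). Dohh, an enzyme of hypusine synthesis on eIF5A, rose in P131S footprints by 1.02 ± 0.18 (adjusted p = 7.3e-04).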

How the data were processed

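The authors deposited a single table of estimated counts per Ensembl gene for all 48 libraries, not normalized. The unit was read from the values, which are partly not whole, never below 0 and of unequal totals. The submitters' processing notes name STAR 2.6.1d, Salmon 1.4.0, DESeq2 1.30 and GRCm38, with no role or order. The annotation, the feature counted and the rule for reads shared between loci are not given in the sources used here. All 48 columns were matched to a library by the column names in the labels.

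Counts were rounded to whole numbers and tested with edgeR 4.0.16 (limma 3.58.1, statmod 1.5.0, data.table version 1.17.8, R 4.3.3): filterByExpr with a minimum count of 10 and a minimum total of 15, TMM scaling within each assay (factors 0.913 to 1.06 in RNA and 0.877 to 1.08 in footprints), and robust quasi-likelihood fits of all genotypes of an assay, or for translational efficiency of both assays together (a mean for each genotype and assay). Each level had 8 comparisons, tested two-sided, and p-values were adjusted over all genes tested. Standard errors are the log2 change divided by the square root of F. Per-clone values are TMM-scaled CPM. An exact permutation test of 1 gene cannot go below 0.1 at 3 clones a group. No libraries were identical, and clones of a genotype differed by more than sampling noise (chi-square per degree of freedom at least 6.08). Counting limits precision at the depths given, and intervals beyond the clone spread were not used.

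RNA and footprints of a clone come from 1 divided lysate. Over 7137 genes, deviations from the genotype means correlated at 0.21 to 0.719 for the 24 same-clone pairs and at -0.608 to 0.058 for 48 pairs of different clones, so the clone numbers pair the libraries.

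Alternatives were DESeq2 1.42.0, limma voom, no filter, a fit of the 2 genotypes alone, each clone left out, and for efficiency the clone as a block and a test of per-clone ratios. The members and lists were chosen with earlier results of these data known. Named with values were the called members, at most 12 of lowest p per comparison and level, the 2 of lowest p where fewer than 3 were called, and the kinases, binding proteins and subunits given by role. Scripts were tested on simulated data. Protein sequences and gene lengths were not used here.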

Additional observations from a re-analysis of the deposited data

Results flagged for a closer look

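The Rps15 P131S and H137Y genotypes had the same contrast with WT, and for the members below the test of the difference between their changes (edgeR's quasi-likelihood test, adjusted over all genes) passed; at most 12 of lowest p per level are listed. Differences are log2 changes in P131S minus those in H137Y. In RNA the difference was 0.56 for Eif3i, -0.68 for Eif2ak2, -0.28 for Eef1g, 0.50 for Eif4e, 0.47 for Eif1ad, 0.33 for Eif4a1, 0.46 for Eef2kmt, -0.37 for Eef2, 0.29 for Eif6, 0.52 for Eif2s2, 0.31 for Eef1d and 0.30 for Eif4e2. In footprints it was 0.56 for Eef1d, 0.70 for Eif4a2 and 0.44 for Eif3i. In translational efficiency it was 0.62 for Eef2, 0.96 for Eef1g, -0.82 for Eef1akmt4 and 0.64 for Eif4b. With the clone as a block, Eif4b no longer passed (adjusted p = 0.063), and Eef2, Eef1g and Eef1akmt4 did. When the 2 genotypes were fitted alone, 2 RNA differences (Eif2ak2 and Eif3i) and none in footprints or efficiency passed. No genotype has more than 3 clones, so single outlying clones were not tested.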

How the results depend on the processing

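Of the values of named members under the alternatives, 1142 kept their direction and their side of the threshold, 201 kept the direction and no longer passed, 17 kept it and newly passed, and none changed direction. Counts of called members moved more. With DESeq2, 5 were called in Rpl5+/- RNA, beside 3.02% of all genes in that fit. In footprints DESeq2 called 1 in Rpl5+/- (beside 0.284%), 1 in Rpl22+/- (2.5%) and 2 in Rpl22-/- (0.9%). It called 7 in Rpl10 R98S footprints (4.49%) and 10 in P131S against H137Y footprints (7.97%). For efficiency it called 8 in P131S (5.48%) and 7 in P131S against H137Y (1.85%). Without the filter on low counts the RNA counts were 0 in Rpl5+/-, 0 in Rpl22+/- and 1 in Rpl22-/-. The footprint counts without the filter were 1 in Rpl22+/-, 1 in Rpl22-/- and 6 in P131S against H137Y. limma voom called 5 in Rpl10 R98S footprints. With the 2 genotypes fitted alone, RNA counts were 20 in Rpl5+/- (beside 15.8% of all genes in that fit), 6 in Rpl22+/- (10.5%), 7 in Rpl22-/- (12%), 31 in Rpl10 R98S (35.4%) and 2 in P131S against H137Y (3.13%). Footprint counts were 8 in Rpl10 R98S (4.88%) and 0 in P131S against H137Y (0.243%), and efficiency counts 3 in H137Y (1.87%) and 0 in P131S against H137Y (0.0205%). The test of per-clone ratios gave 2 for efficiency in P131S against H137Y. Shares of all genes are not given here for the fits without the filter, with limma voom or of per-clone ratios. The fits without the filter hold more genes, and the 2-genotype fits and those without a clone fewer samples. The cause of the other shifts was not tested.

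With the clone as a replicate block, efficiency calls numbered 7 in P131S and 11 in H137Y against WT and 5 in P131S against H137Y. The shares of all genes called in that fit were 4.86%, 3.83% and 0.936%. In P131S they added Eef1b2, Eif4h and Eif4g2, and in H137Y Eif1ad, Eef2k, Eif4g2 and Eif2a. No member was called under this pairing in the other 5 genotypes. The shares of all genes there were 0.0% in Rpl5+/- and Rpl11+/-, 0.0604% in Rpl22+/-, 0.0302% in Rpl22-/- and 0.471% in Rpl10 R98S.

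Leaving out 1 clone gave RNA counts of 0 in Rpl5+/- and 1 in Rpl22-/-, with 0 to 1 in Rpl22+/-, 5 to 20 in Rpl11+/-, 8 to 12 in Rpl10 R98S, 34 to 40 in P131S, 28 to 31 in H137Y and 17 to 27 in P131S against H137Y. Footprint counts were 0 in Rpl5+/- and Rpl22-/-. They were 0 to 1 in Rpl22+/-, 0 to 1 in Rpl11+/-, 1 to 2 in Rpl10 R98S, 11 to 27 in P131S, 5 to 9 in H137Y and 2 to 9 in P131S against H137Y. Efficiency counts were 0 to 1 in Rpl22+/-, 1 to 5 in P131S, 2 to 6 in H137Y, 0 to 3 in P131S against H137Y and 0 in the other genotypes. Members with few counts, such as Eif4ebp3 and the copies of Eif1ad, are limited by depth. How reads were shared between copies bears on Eif3j1 and Eif3j2, and was not tested for other members with copies or pseudogenes.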
